A study of Homo sapiens with 6 samples.

Results

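The genes described here are 35 genes of the unfolded protein response and of protein folding in the endoplasmic reticulum (ER). They were listed by name, and each was followed through the catalogue array features (probes) whose RefSeq accession maps to that gene. A total of 44 catalogue probes represented all 35 genes, out of 19721 gene symbols named on the array. Of these probes, 42 were bright enough to be tested, and they covered 34 genes. The ERN1 probe and 1 of the 3 SEL1L probes were too dim.

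Expression was measured on 6 one-color microarrays of REH cells, an established human line of B-cell precursor acute lymphoblastic leukemia (BCP-ALL) in which ETV6 is fused to RUNX1 and the other ETV6 allele is deleted. All cells of both groups were transduced with a lentiviral short hairpin RNA (shRNA) vector carrying GFP, and GFP-positive cells were sorted. The 3 knockdown arrays hold cells with an ETV6 shRNA that hits the fusion transcript, and the 3 control arrays hold cells with a second ETV6 shRNA that does not and served as the non-targeting control, so each group rests on 1 hairpin in 1 cell line. The labels number the replicates 1 to 3 in each group. Besides the knockdown, replicate 1 of both groups was set against replicates 2 and 3 of both groups, a contrast that was chosen with earlier results of these arrays known.

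The unfolded protein response is the cell's reaction to unfolded protein in the ER. IRE1 (encoded by ERN1) splices the XBP1 mRNA, PERK (EIF2AK3) phosphorylates the translation factor eIF2alpha and so favours translation of ATF4, and ATF6 is cut in the Golgi to release a transcription factor. XBP1 and ATF6 induce chaperones such as HSPA5 (BiP) and the machinery of ER-associated degradation, whereas ATF4 induces amino acid and redox genes, DDIT3 (CHOP) and PPP1R15A (GADD34), which returns eIF2alpha to its unphosphorylated state. ATF4 is also induced by other eIF2alpha kinases that sense amino acid lack, double-stranded RNA or heme lack, a program known as the integrated stress response. B-lineage cells lean on the XBP1 branch when they become antibody-secreting plasma cells.

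The regulatory sequences of these branches differ, and they are shown first because the member with the largest difference between replicates held an element of each kind. Promoter windows of 250 bases before the gene start were taken from the RefSeq promoter table (GRCh38.p14), which held 39 windows for 31 members. PDIA3, DERL1, DERL3 and SEC24D had no window. The ER stress element (CCAAT, 9 further bases, CCACG, searched on both strands) was present in 9 member windows of 8 genes, or 23.1%, against 0.074% of all 35116 windows. Each element is printed below along the strand that carries it, with the matched stretch in capitals and the neighbouring bases in lower case.
CALR: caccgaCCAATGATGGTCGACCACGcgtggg
CANX: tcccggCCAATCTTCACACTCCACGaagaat
CRELD2: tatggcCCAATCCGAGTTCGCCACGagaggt
ERO1B: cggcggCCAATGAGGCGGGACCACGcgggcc
HSP90B1: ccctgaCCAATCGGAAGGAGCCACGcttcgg
HSP90B1: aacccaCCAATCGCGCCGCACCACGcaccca
HSPA5: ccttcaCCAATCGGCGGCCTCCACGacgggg
PDIA6: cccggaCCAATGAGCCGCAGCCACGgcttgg
XBP1: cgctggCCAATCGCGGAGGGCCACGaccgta

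HSP90B1, the ER form of Hsp90, held a pair of them in 1 window. In HSPA5 the element lay 48 to 66 bases before the start, and in ERO1B, an ER oxidase whose mRNA differed with the knockdown, it lay 225 to 243 bases before the start on the opposite strand.

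The second form of the ER stress element (ATTGG, 1 base, CCACG, both strands) was found in windows of 3 members, or 7.69% of member windows, against 0.0513% of all windows.
HERPUD1: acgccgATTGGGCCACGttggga
HYOU1: gtactcATTGGACCACGtcccag
HYOU1: cctgggATTGGACCACGtcacgg
SDF2L1: gttttgATTGGTCCACGcttccg

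HYOU1, a large Hsp70-like ER chaperone, held the second form at both 69 to 79 and 175 to 185 bases before its start. The latter overlaps the only match among members to the core of the UPR element (TGACGTGG), which 0.612% of all windows held.

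The composite element recognised by ATF4 with a C/EBP partner (TGATG, 1 base, AA, both strands) was present in 3.14% of all windows. It was present in 1 member window (2.56%), that of HERPUD1. Among 14 genes of the PERK branch and integrated stress response that are not members, 13 had a window, and 4 of their 22 windows (18.2%) held it.
HERPUD1: acgggcTGATGCAAcccgcc
ASNS: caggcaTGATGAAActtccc
ATF3: tcaggaTGATGGAAggctgt
CHAC1: caggagTGATGCAAcggcag
PPP1R15B: cccggcTGATGCAAcctcac

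HERPUD1, CHAC1 and PPP1R15B shared the same 8 bases. Both kinds of element are seen in the whole HERPUD1 window (chr16:56931892-56932141, plus strand, 5′ to 3′ towards the start), where the first capitals mark the ATF4 composite element, read on the opposite strand, and the second capitals mark the second form of the ER stress element. The HSPA5 window (chr9:125241344-125241593, minus strand), with the ER stress element in capitals, is shown for comparison.
HERPUD1: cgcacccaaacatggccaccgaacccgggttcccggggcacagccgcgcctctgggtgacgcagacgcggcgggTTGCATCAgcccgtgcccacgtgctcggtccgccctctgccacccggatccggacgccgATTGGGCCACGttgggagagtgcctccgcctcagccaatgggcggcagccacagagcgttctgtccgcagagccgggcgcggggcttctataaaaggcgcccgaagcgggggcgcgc
HSPA5: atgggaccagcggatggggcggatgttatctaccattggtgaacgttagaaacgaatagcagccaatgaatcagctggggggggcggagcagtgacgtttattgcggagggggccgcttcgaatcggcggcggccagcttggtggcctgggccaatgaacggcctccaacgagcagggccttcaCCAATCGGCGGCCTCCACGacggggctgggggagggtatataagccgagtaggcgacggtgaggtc

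The windows of PPP1R15A and CREB3L2 held none of the 4 elements. A match says that these letters are present, not that a factor bound there in these cells, and several of these genes are textbook examples from which such elements were defined.

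**Figure D1:**
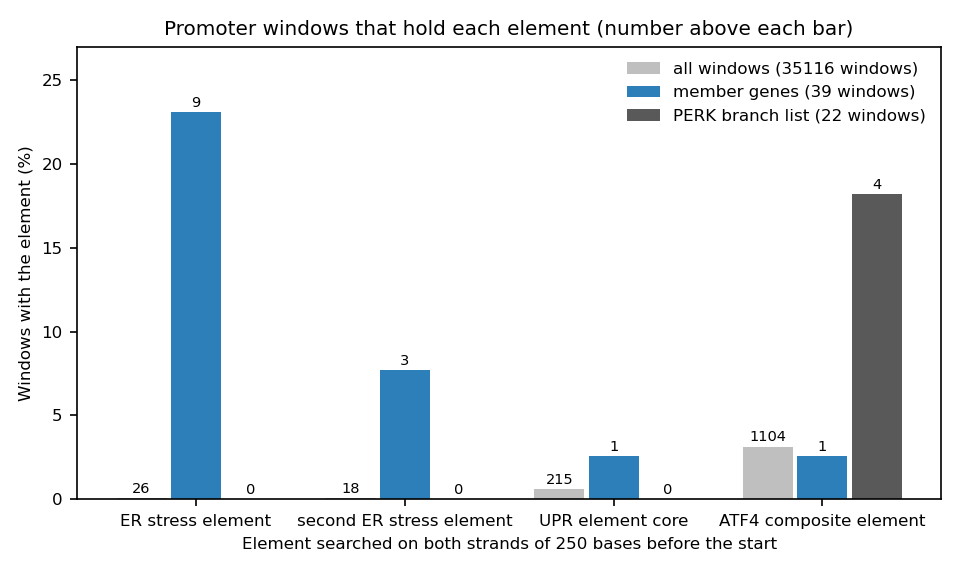
Share of promoter windows (vertical axis, in percent) that hold each of 4 sequence elements, for all windows, for the windows of member genes and for those of the PERK branch list, with the number of windows above each bar. Members stand out for the first ER stress element (23.1%) and the PERK branch list for the ATF4 composite element (18.2%).

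Values below are generalised log2 values, equal to log2 at high intensity but compressed near the background, so that changes of dim probes come out too small. A probe was called where limma gave an adjusted p under 0.05 over all 27490 retained probes of the array. Raw median intensity ran from 66 to 75 per array against 42.25 to 48 for the negative control spots, and the median SD within a group was 0.1503. The ETV6 probe above background had lower values with the knockdown (7.92, 8.05 and 8.37 on control arrays, 7.50, 7.46 and 7.29 on knockdown arrays), with a difference of -0.70 ± 0.14 (SE) that missed the threshold (limma, adjusted p = 0.0513). Whether this probe lies in the fused portion of ETV6 was not analysed here. In the B-cell precursor list, 9 of 11 genes were above background on all 6 arrays. In the T cell list 2 of 5 genes were above it on all arrays (CD3D and CD8A) and 2 on none (CD3E and CD3G). In the monocyte and granulocyte list, with 4 of 5 genes on the array, 2 were above it on all arrays (CD14 and CSF1R) and 2 on none (ELANE and FCGR3A). In bulk RNA, fewer cells that express a gene and less of its RNA per cell cannot be told apart. Nothing in the labels says whether replicates are separate cultures, while the study calls the knockdown samples biological triplicates.

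**Figure D2:**
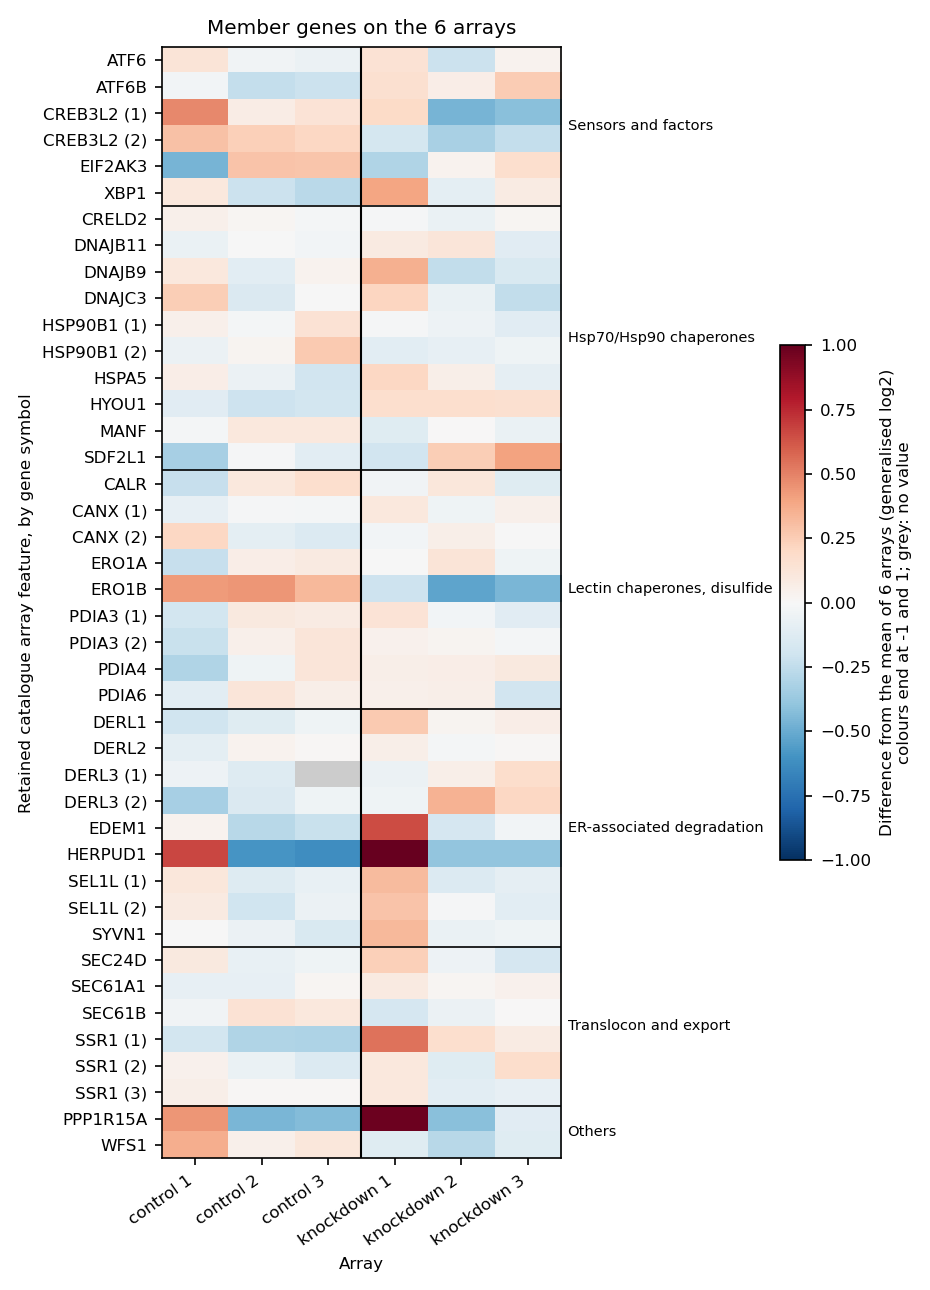
Difference of each retained member probe from its own mean over the 6 arrays (color, generalised log2), with arrays in columns and genes in rows grouped by role. Numbers in parentheses separate probes of 1 gene in the order of their probe names. Most rows are pale, ERO1B is lower on all 3 knockdown arrays, and HERPUD1 and PPP1R15A are high on replicate 1 of both groups.

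To ask whether the fusion affects the ER folding genes, knockdown arrays were compared with control arrays. ERO1B and CREB3L2 were lower with the knockdown, and the great majority of member genes differed little. Of 42 member probes, 2 were called, both lower, and 40 had a difference under 0.50 in size. Those 2 probes are 4.76% of the member probes, against 1.74% called among all retained probes (0.458% higher and 1.28% lower). With 2 probes called, the members' share was near this background. At an unadjusted limma p under 0.05, the share was 19.0% of member probes (8 of 42) against 12.5% of all retained probes. The median difference was 0.05 for the members and 0.00 for all retained probes. Scaling on the 7 spike-in probes in place of the bulk of probes moved the median of all retained probes to 0.37 in this comparison, and the members' median then exceeded it by 0.05 as before.

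ERO1B encodes an ER oxidase that passes oxidising equivalents to protein disulfide isomerases and is best known from pancreatic beta cells and other secretory tissue. Its probe had values of 8.69, 8.71 and 8.59 on control arrays 1 to 3 and of 8.06, 7.74 and 7.81 on knockdown arrays 1 to 3. The groups did not overlap, and each knockdown array was lower than its same-numbered control array, by -0.63, -0.97 and -0.78. The difference was -0.79 ± 0.11 (SE), or 1.73-fold lower (limma, adjusted p = 0.0148). The difference kept its sign in all 16 alternatives, from -0.89 to -0.53. The call was lost with spike-in scaling (-0.53, limma adjusted p = 0.203). Leaving out 1 array also ended it for control 1 (adjusted p = 0.0526), control 2 (0.0918), knockdown 2 (0.0720) and knockdown 3 (0.0779). With the array's row on the slide as a term, the knockdown arrays are set against control 3 alone, and the difference was -0.72. On the slide, control 1 and 2 stood in row 1 and the other 4 arrays in row 2, and within row 2 all 3 knockdown arrays were below control 3. ERO1A, the more widely expressed oxidase of the pair, had a difference of 0.05 (limma, adjusted p = 0.898).

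CREB3L2 encodes a membrane-bound transcription factor of the ATF6 type that is cut in the Golgi and acts on secretory pathway genes. Its probe A_33_P3320888 read 9.26, 9.20 and 9.17 on the control arrays and 8.79, 8.64 and 8.73 on the knockdown arrays. These values did not overlap, and their difference of -0.49 ± 0.09 (SE) was just inside the threshold (limma, adjusted p = 0.0496). The call was kept in 4 of 16 alternatives, and the difference ran from -0.52 to -0.16. The brighter CREB3L2 probe, A_33_P3211739, read 13.23, 12.82 and 12.88 against 12.94, 12.28 and 12.33. It was lower within each pair of same-numbered arrays (-0.29, -0.54 and -0.55), but knockdown 1 lay above control 2 and 3, and its difference of -0.46 was not called (limma, adjusted p = 0.390).

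Of the other sensors and factors, none was called for the knockdown. ATF6 read 10.59, 10.43 and 10.41 on control arrays and 10.61, 10.25 and 10.50 on knockdown arrays, and the groups overlapped. Its difference was -0.03 and that of EIF2AK3 -0.06, and the sign of both turned under several alternatives. ATF6B, an ATF6 relative, read 7.93, 7.72 and 7.74 on control arrays and 8.12, 8.02 and 8.21 on knockdown arrays, and the groups did not overlap. Its difference of 0.32 was not called (limma, adjusted p = 0.249). XBP1 differed by 0.25 (limma, adjusted p = 0.566), and by 0.12 without knockdown replicate 1. The ERN1 probe was well above background only on control 1 and knockdown 1, with values from 5.54 to 5.99, so no level of this sensor could be compared.

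Among the Hsp70 and Hsp90 chaperones and their helpers, 0 of 10 probes were called by limma and 1 had an unadjusted p under 0.05. HSPA5, the central ER chaperone and the usual readout of the response, read 8.64, 8.51 and 8.38 on control arrays and 8.78, 8.63 and 8.48 on knockdown arrays. The groups overlapped, and the difference was 0.12 ± 0.12 (SE; limma, adjusted p = 0.742), or 0.04 without knockdown replicate 1. HSPA5 rests on 1 probe, with a control mean of 8.51 against 15.2 and 10.61 for the HSP90B1 probes. How fully this probe captures the transcript was not tested. HYOU1 was the probe with the low unadjusted p. It read 8.43, 8.33 and 8.36 against 8.71, 8.71 and 8.70, so that each knockdown array was above every control array. The difference of 0.33 ± 0.09 (SE) was not called (limma, adjusted p = 0.149), and its adjusted p ran from 0.0815 to 0.638 over the alternatives. For SDF2L1, a co-chaperone that keeps HSPA5 clients soluble, the difference was 0.30 (limma, adjusted p = 0.526).

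The ER-associated degradation list holds the lectin EDEM1, the SEL1L and SYVN1 ubiquitin ligase complex, its cofactor HERPUD1 and the Derlin channel proteins. All 9 probes, of 7 genes, had a positive difference, from 0.04 to 0.36, and none was called. Over all retained probes, 13657 of 27490 were positive. Only DERL1, EDEM1, HERPUD1 and DERL3 A_33_P3724157 were positive in every pair of same-numbered arrays. Each other probe had a slightly negative pair, from -0.01 to -0.04. Every probe of the list also lay above the median of all probes with 75th percentile, spike-in and normexp scaling of the same arrays (8 probes tested with normexp). In the authors' normalized values 9 of 10 did. The median was 0.15, against 0.00 for all probes. The largest value was 0.36 for HERPUD1, with 0.66, 0.20 and 0.23 within pairs of same-numbered arrays. Without knockdown 1, in a fit with no block that kept control 1, it was -0.21. A probe of DERL3 had no value on control 3, where its spot carried an outlier flag.

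Of the remaining members, WFS1, an ER membrane protein whose loss causes Wolfram syndrome, read 8.07, 7.76 and 7.82 against 7.59, 7.43 and 7.59, with no overlap and a difference of -0.35 that was not called (limma, adjusted p = 0.255). SSR1, a translocon-associated subunit, is named after its values were seen, because the replicate number as a block added a call. Its probe A_24_P544882 read 8.92, 8.80 and 8.79 on control arrays and 9.64, 9.27 and 9.18 on knockdown arrays. Its difference of 0.52 was not called without the block (limma, adjusted p = 0.133) and was called with it (adjusted p = 0.0476), while the other SSR1 probes had differences of 0.10 and -0.06.

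**Figure D3:**
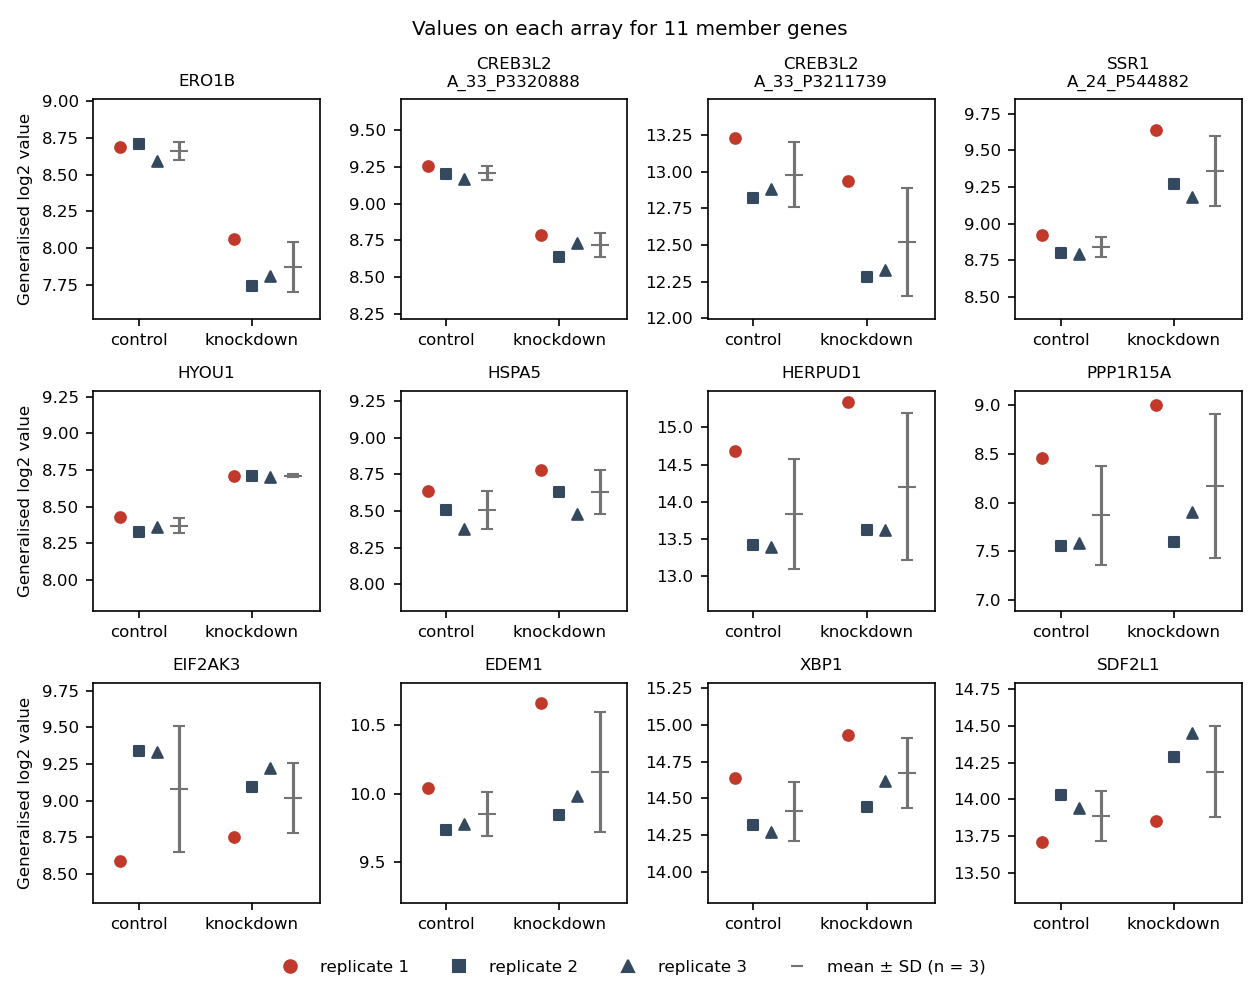
Generalised log2 value on each array for 12 probes of 11 member genes, by group, with replicate 1 in red, replicates 2 and 3 in dark blue, and the group mean with its SD (n = 3). Each panel has its own vertical range. ERO1B and CREB3L2 A_33_P3320888 separate the groups, whereas HERPUD1, PPP1R15A and EIF2AK3 separate replicate 1 from the other replicates.

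Next, replicate 1 of both groups was compared with replicates 2 and 3, with the group kept in the fit. The fit counts control 1 and knockdown 1 as 2 independent arrays. Where same-numbered arrays belong together, the contrast is 1 replicate against 2. Its SEs and adjusted p values then do not measure variation between independent replicates. HERPUD1 and PPP1R15A were higher in replicate 1, by 2.82-fold and 2.09-fold, EIF2AK3 was 1.49-fold lower, and the ER chaperones as a group differed little. Of 42 member probes, 4 were called (9.52%), against 5.66% of all retained probes, with 3 higher (background 3.64%) and 1 lower (background 2.02%). The share of members called was therefore not far from that of the whole array, and the members' median difference was 0.07 against 0.01 for all probes. At an unadjusted limma p under 0.05, the share was 35.7% of member probes (15 of 42) against 23.9% of all. Spike-in scaling moved the median of all probes to -0.17 in this comparison and the 75th percentile moved it to -0.08, and the members' median then lay 0.10 above it in both.

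HERPUD1 (chromosome 16) encodes an ER membrane protein that recruits the degradation machinery to unfolded clients. Its probe read 14.68, 13.42 and 13.39 on control arrays 1 to 3 and 15.34, 13.62 and 13.62 on knockdown arrays 1 to 3. Both replicate 1 arrays were above all 4 other arrays, by 1.27 within the control group and by 1.72 within the knockdown group. The fitted difference was 1.5 ± 0.12 (SE; limma, adjusted p = 0.00132), and it was called in all 16 alternatives, from 1.27 to 1.72. For replicate 1, the slide row term and leaving out control 3 give the same fit, so 1 of the 16 repeats another. This is the member whose window, printed above, holds both the ATF4 composite element and the second ER stress element. PPP1R15B, whose window holds the same ATF4 match, differed by 0.31 and was not called (limma, adjusted p = 0.124). The window of PPP1R15A, the next member described, holds none of the elements. Whether the elements bear on these differences was not tested.

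PPP1R15A (chromosome 19) encodes the phosphatase subunit that ends eIF2alpha signalling. It read 8.46, 7.56 and 7.59 on control arrays and 9.0, 7.60 and 7.91 on knockdown arrays, and here too both replicate 1 arrays were above the other 4. Its difference was 1.07 ± 0.13 (SE; limma, adjusted p = 0.00733). The call was lost without the filter on dim probes (adjusted p = 0.0642) and without knockdown replicate 1 (0.0626). EIF2AK3, the kinase that phosphorylates eIF2alpha in ER stress, went the other way, with 8.59, 9.34 and 9.33 on control arrays and 8.75, 9.09 and 9.22 on knockdown arrays. Both replicate 1 arrays were below the other 4, and the difference was -0.57 ± 0.11 (SE; limma, adjusted p = 0.0284), a call kept in 5 of 16 alternatives.

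The bright CREB3L2 probe A_33_P3211739 was also higher in replicate 1 (0.51 ± 0.10 SE; limma, adjusted p = 0.0290), by 0.38 within the control group and 0.64 within the knockdown group. The call was kept in 5 of 16 alternatives, and the second CREB3L2 probe had a difference of 0.09 (limma, adjusted p = 0.559).

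Other genes of the XBP1 and ATF6 branches were not called. XBP1 itself read 14.64, 14.32 and 14.27 on control arrays and 14.93, 14.44 and 14.62 on knockdown arrays. Both replicate 1 arrays were the highest, but the difference of 0.37 was not called (limma, adjusted p = 0.0631), and spliced and unspliced XBP1 were not told apart by this probe. EDEM1, which pulls misfolded glycoproteins out of the folding cycle, read 10.04, 9.73 and 9.78 against 10.66, 9.84 and 9.98, with a difference of 0.51 (limma, adjusted p = 0.0563). HSPA5 differed by 0.22 (limma, adjusted p = 0.214) and ATF6 by 0.20 (0.266), again with both replicate 1 arrays highest. SDF2L1 went the other way, with 13.71, 14.03 and 13.94 on control arrays and 13.85, 14.29 and 14.45 on knockdown arrays, and its difference of -0.40 was not called (limma, adjusted p = 0.0681). Of these genes, EDEM1 was called in 4 of 16 alternatives and XBP1 and SDF2L1 in 3, while HSPA5 and ATF6 were called in none.

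By role, 0 of 10 probes of the Hsp70 and Hsp90 chaperones, 0 of 9 probes of the lectin chaperones and disulfide enzymes and 0 of 6 probes of the translocon and export genes were called by limma for replicate 1. At an unadjusted p under 0.05, which 23.9% of all retained probes passed, these counts were 3, 0 and 2. The chaperone list ran from -0.40 to 0.35 with a median of 0.03. The lectin and disulfide list, which holds calreticulin, calnexin and the disulfide isomerases, ran from -0.20 to 0.16 with a median of -0.04. The genes whose windows hold the first ER stress element, namely CALR, CANX, CRELD2, ERO1B, HSP90B1, HSPA5, PDIA6 and XBP1, had 0 of 10 probes called by limma in this comparison and 1 with an unadjusted p under 0.05. At a background of 5.66%, a count of 0 in 10 probes is near the share of the whole array, and XBP1 was among the genes called in some alternatives. In the ER-associated degradation list, HERPUD1 was the only call among 9 probes, with a list median of 0.24, and 6 of the 9 had an unadjusted p under 0.05.

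**Figure D4:**
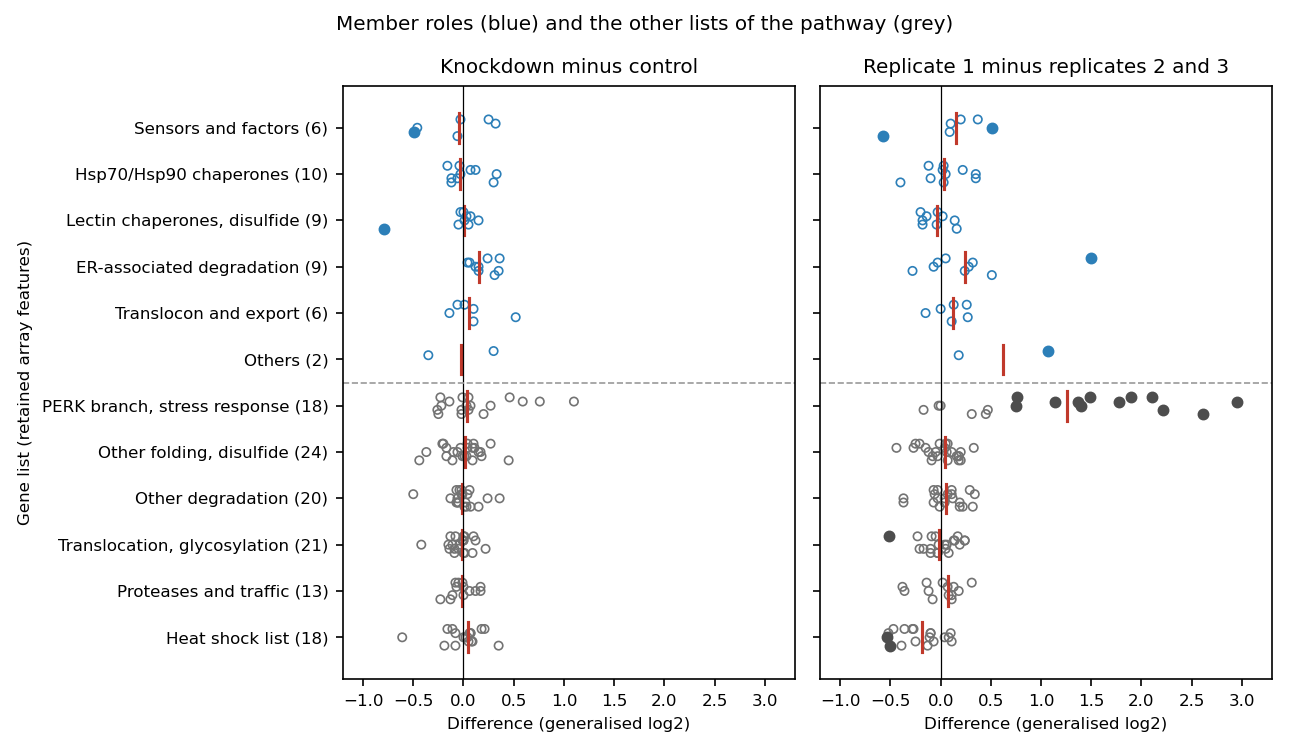
Difference of each retained probe (horizontal axes, generalised log2) by gene list, for the knockdown (left) and for replicate 1 (right), with called probes filled and list medians as red bars. The number of probes follows each list name. The PERK branch list stands to the right of 0 for replicate 1, with a median of 1.25, and among members HERPUD1 and PPP1R15A lie farthest to the right.

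The other genes of the pathway comprised 73 genes in 5 lists, of which 72 had 96 retained probes. For replicate 1, 13 of these probes were called (13.5%, against 5.66% of all retained probes). Of them 12, all higher, were in the PERK branch and integrated stress response list. Within that list 12 of 18 probes (66.7%) and 10 of 14 genes were called higher in replicate 1, against 3.64% of all retained probes. The list median was 1.25, and 15 of 18 probes lay above the median of all probes with each scaling. In the other 4 lists 1 of 78 probes was called (1.28%, against 5.66% of all). It was STT3B, a catalytic subunit of the oligosaccharyl transferase (-0.51; limma, adjusted p = 0.0233), named after its value was seen. That count of 1 rose to 7 with normexp (1 higher and 6 lower) and to 6 with the intensity trend and robust prior (1 higher and 5 lower). The added calls fell on FICD, OS9, TRAF2 and UFD1 in both and on TXNDC5 with normexp, while the PERK list had 12 called probes in each. The lists were not tested against each other.

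TRIB3, a pseudokinase induced by ATF4 and CHOP, read 15.36, 12.23 and 12.51 on control arrays and 16.41, 13.32 and 13.66 on knockdown arrays. It had the largest replicate 1 difference of the list, 2.95 ± 0.13 (SE; limma, adjusted p = 0.000191). CHAC1, which degrades glutathione, had 2.61 on its brighter probe, and ASNS, the asparagine synthetase, had 2.10. SESN2 followed with 1.90, ATF5 with 1.78, DDIT3 with 1.49, CEBPB with 1.4 and DDIT4 with 1.37. ATF3 was called on 2 of 4 probes (1.14 and 0.75), and ATF4 itself had 0.76 (limma, adjusted p = 0.0172). The call of ATF4 was lost in 7 of 16 alternatives, with an adjusted p of up to 0.458 under spike-in scaling, and that of the second ATF3 probe (A_24_P33895) in 5. Calls of the first ATF3 probe, DDIT3 and DDIT4 were each lost in 1, and those of TRIB3, CHAC1, ASNS, SESN2, ATF5 and CEBPB in none. The values of ATF4 were 17.30, 16.32 and 16.49 on control arrays and 17.17, 16.42 and 16.67 on knockdown arrays, with both replicate 1 arrays highest. PPP1R15B, NUPR1, EIF2S1 and VLDLR were not called.

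**Figure D5:**
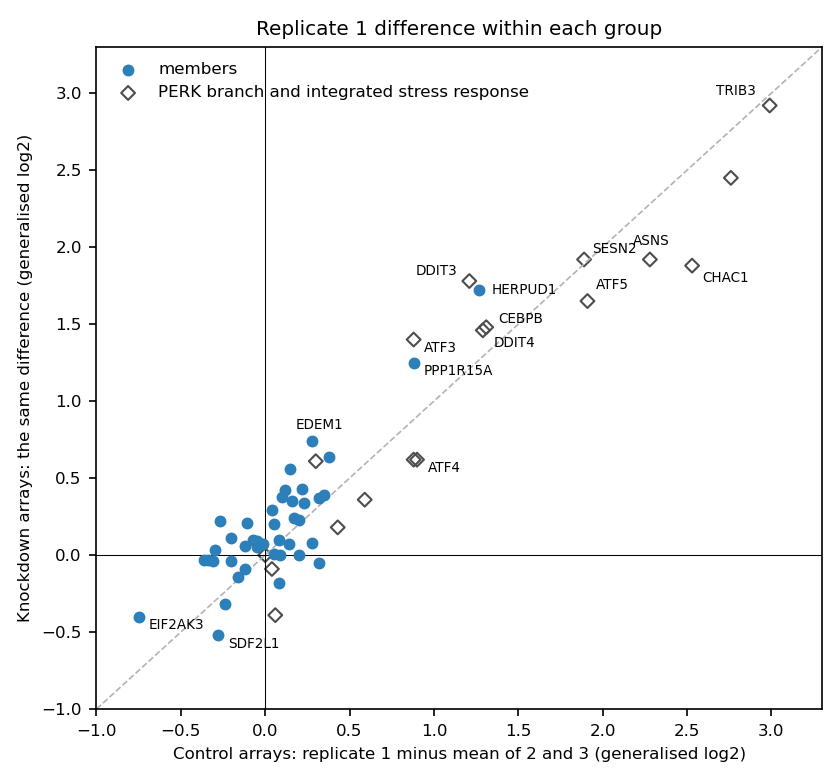
Replicate 1 minus the mean of replicates 2 and 3 in the control arrays (horizontal axis) and in the knockdown arrays (vertical axis), both on the generalised log2 scale, for member probes (blue) and for the PERK branch and integrated stress response list (diamonds). The dashed line marks equal differences. HERPUD1 (1.27 and 1.72) and PPP1R15A (0.88 and 1.25) lie among the PERK branch genes, apart from the other members.

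The replicate 1 differences had the same sign in both groups for all 4 called members. No member had a knockdown difference in replicate 1 that departed from that in the other replicates past the threshold (limma interaction term, 0 of 42 member probes and 115 of all 27490 probes, with 3 member probes at an unadjusted p under 0.05 and a lowest adjusted p of 0.554 among members).

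With the knockdown, 0 of 96 other pathway probes were called by limma, and 5 (5.21%) had an unadjusted p under 0.05, against 12.5% of all retained probes. With the replicate number as a block, 3.79% of all retained probes were called, of which those higher made up 1.36% of all. The block takes same-numbered arrays as pairs, which the labels do not state. The block called 3 of 42 member probes (7.14%), namely ERO1B, CREB3L2 A_33_P3320888 and SSR1 A_24_P544882. It called 4 of the 96 other pathway probes (4.17%), near the background, and all 4 were higher, namely TRIB3 (1.1, adjusted p = 0.00283), DDIT4 (0.76, 0.0147), ATF5 (0.59, 0.0354) and TXNDC12 (0.45, 0.0478), a thioredoxin of the ER named after its value was seen. TRIB3 was higher on the knockdown array within each pair of same-numbered arrays, by 1.05, 1.09 and 1.15. In the fit with no block its difference ran from 0.12 with knockdown replicate 1 left out to 2.09 with control replicate 1 left out. DDIT3 differed by 0.84, 0.06 and 0.49 within pairs and ATF4 by -0.14, 0.10 and 0.19, and neither was called with the block (limma, adjusted p = 0.183 and 0.825). Among members, HERPUD1 had 0.66, 0.20 and 0.23 within pairs and PPP1R15A 0.54, 0.04 and 0.32, also without a call (limma with the block, adjusted p = 0.177 and 0.244).

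In the plasma cell list, 2 of 6 probes were called with the knockdown (background 1.74%), both of PRDM1, and 2 of 6 for replicate 1 (background 5.66%), all lower. PRDM1 encodes the transcription factor that drives plasma cell differentiation and acts upstream of XBP1. Its brighter probe read 7.64, 8.0 and 7.71 on control arrays and 6.00, 6.22 and 6.28 on knockdown arrays, a difference of -1.61 ± 0.13 (SE; limma, adjusted p = 0.00109), and the other had -0.99 (adjusted p = 0.00869). IRF4 (0.38), JCHAIN (0.11) and MZB1 (0.10) had positive differences that were not called. With the replicate block SDC1 was also called (-0.43, limma adjusted p = 0.0494). In the B-cell precursor list 0 of 15 probes were called by limma with the knockdown, and 7 (46.7%) had an unadjusted p under 0.05, against 12.5% of all probes. The block called 4 of these 15, all higher, namely CD22 (0.67, adjusted p = 0.0264), CD79B (0.55, 0.0367) and both IGLL1 probes (0.68 and 0.53, 0.0132 and 0.0379). In replicate 1, IRF4 (-0.64; limma, adjusted p = 0.00969) and SDC1 (-0.57, 0.0230) were lower, whereas MZB1 had 0.15 and was not called. Also lower were 1 of 2 probes of the precursor marker IGLL1 (-0.57, 0.0195) and 1 of 3 of MME (-0.52, 0.0287). Of 6 plasma cell genes 4 were above background on all arrays and TNFRSF17 on none. The summed linear level of the B-cell precursor list was 207491 to 218988 in the control group and 247880 to 296757 in the knockdown group, with no overlap, and 210352 to 296757 in replicate 1 and 207491 to 266845 in the others. The summed level of the plasma cell list lay between 16448 and 16725 in the control group and between 15268 and 17853 in the knockdown group, and it was 15268 to 16712 in replicate 1 and 15498 to 17853 in the others. Their part in the differences of the member genes was not tested.

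A list of 12 heat shock genes served to compare folding genes outside the ER, most of them cytosolic and HSPD1 and HSPE1 mitochondrial. For replicate 1, 2 of its 18 probes were called (11.1%, against 5.66% of all probes), both lower, 1 of HSPB1 (-0.53; limma, adjusted p = 0.0378) and 1 of HSP90AA1 (-0.50, 0.0389). The second HSPB1 probe had -0.25 (0.218) and the other HSP90AA1 probes -0.47 and -0.52 (0.0621 and 0.0527), none called, and the list's median was -0.19 against 0.01 for all probes. With the knockdown, 0 of 18 were called by limma and 1 had an unadjusted p under 0.05, HSPB1 A_33_P3287646, which was called with the replicate block (-0.61, adjusted p = 0.0409). The second HSPB1 probe had 0.09 (adjusted p = 0.690 with the block). For replicate 1, 0 probes of the list were called with spike-in or 75th percentile scaling, 1 with the authors' normalized values and 5, all lower, with normexp. The list's median lay 0.18 to 0.21 below that of all probes under each of these scalings.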

How the data were processed

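Total RNA of 3 control and 3 knockdown samples of REH cells was labelled with Cy3 and hybridised to a custom array of 62976 spots. The authors extracted spot intensities with Agilent Feature Extraction 10.7.1.1, per the file headers, and the deposited intensity columns used here (median spot intensity, local background and processed signal) were not normalized between arrays. A second deposited file holds the authors' log2 values after normalization for 27869 probes, made with VSN, background subtraction and a filter against negative controls. The single-array correlation of the values used here with that table was 0.99906 to 0.99967 across probes. Here an affine calibration per array with an inverse hyperbolic sine (the VSN model, written anew, with a least-squares share of 0.9) was fitted to median spot intensities. Outlier-flagged spots were removed, and replicate spots of a probe were averaged. Retained probes had a value above 1.1 times the 0.95 quantile of 308 negative control spots, both on the normalized scale, on 60% or more of the arrays in either group. This left 27490 of 57176 probes.

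Differences were tested two-sided with limma (version 3.58.1, R version 4.3.3), adjusted by Benjamini-Hochberg over all retained probes, following the study's methods. The main fit had no block, because those methods do not say whether one was used. The replicate 1 comparison kept a group term. An exact permutation test of 3 arrays against 3 has a smallest p of 0.1, so it could not have given a call. The calls use limma's pooling of variance across probes, and a test without that pooling was not run. Same-numbered arrays deviated together from their group means (correlation 0.426, 0.287 and 0.204 across probes). Crossed pairs of replicates 2 and 3 had 0.17 and 0.187, and replicate 1 with another number had -0.331 to -0.264. Deviations within a group cancel out, so a shift of replicate 1 alone can give this pattern. The check sets replicate 1 apart but cannot decide whether replicates 2 and 3 pair by number. A block that pairs arrays by number was run as an alternative. All arrays came from 1 slide and 1 scan day. The procedure was tested on simulated data.

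A RefSeq symbol was found for 25728 of 34134 catalogue probes (75.4%). Array coordinates were not used. Promoter windows came from RefSeq (GRCh38.p14), read with Python 3.11.15. Alternatives were other scalings (75th percentile, spike-in probes, normexp on median intensities with an offset of 50 and quantile normalization), the deposited table, the filter, the variance model, averaged probes, slide row and left-out arrays. Values per array are given for HSPA5, the sensors, XBP1, called members and the 6 members with the largest difference in each comparison, ranked by 1 probe per gene (that with the highest mean value). For other pathway genes the rule named ATF4, DDIT3, TRIB3 and up to 10 called genes. The members, lists and contrasts were chosen with earlier results of these data known.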

Additional observations from a re-analysis of the deposited data

How the results depend on the processing

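The count of member probes called for the knockdown (2) was 1 with the 75th percentile, spike-in scaling, the deposited table, no filter or averaged probes, and 0 to 1 with 1 array left out. Spike-in scaling called SSR1 in place of ERO1B and CREB3L2. With the replicate block it was 3. That of other pathway probes (0) was 2 with normexp, both lower, and 4 with the replicate block. The block changed no call of a named gene beyond those given in the report. Calls over all probes were 191 without control replicate 2 to 553 without knockdown replicate 1, 224 with no filter, 782 with spike-in scaling and 1041 with the block, against 478. The slide row term sets the knockdown arrays against control 3 alone, so its counts for the knockdown are not given.

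For replicate 1, the member count (4) was 2 with the 75th percentile, spike-in scaling, slide row or no group term, 7 with normexp, with probes well above background on all arrays or with an intensity trend and robust prior, 1 with no filter, and 1 to 4 with 1 array left out. The lowest came without knockdown replicate 1. Other pathway calls (13) fell to 8 with no filter and rose to 19 with normexp and 18 with the trend, with the added calls outside the PERK list. Over all probes the range was 141 with no filter to 2635 with the trend, against 1557. In every one of these settings HERPUD1 was called.

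Some small differences turned their sign. For the knockdown, EIF2AK3 had 0.27 with spike-in scaling, 0.06 without control replicate 2 or 3, and 0.07 without knockdown replicate 1. ATF6 had 0.06 with the 75th percentile, 0.39 with spike-in scaling, 0.04 with slide row, 0.03 without control replicate 1 and 0.07 without knockdown replicate 2. Without knockdown replicate 1, in fits with no block that kept control replicate 1, HERPUD1 had -0.21, PPP1R15A -0.12, ATF4 -0.16 and DDIT3 -0.13. For these genes the differences within pairs 2 and 3 were all positive. ATF4 had -0.14 and -0.06 without control replicate 2 or 3. For replicate 1, spike-in scaling gave ERO1B -0.000776, CREB3L2 A_33_P3320888 -0.05, WFS1 -0.000216 and HYOU1 -0.07, and normexp gave HYOU1 -0.02. With 1 array left out in turn, the knockdown difference ran from -0.31 to 0.07 for EIF2AK3, from -0.11 to 0.07 for ATF6, from -0.21 to 0.79 for HERPUD1, from -0.12 to 0.59 for PPP1R15A, from -0.16 to 0.35 for ATF4 and from -0.13 to 0.87 for DDIT3. For HSPA5 it was 0.04 to 0.19 and for XBP1 0.12 to 0.37. The cause of these changes was not tested. Each group rests on 3 arrays, so their number limits the precision, and dim probes such as ERN1 have no measured change.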
